A study of Homo sapiens with 8 samples.

Results

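The genes described here encode the 6 subunits of the cleavage and polyadenylation specificity factor (CPSF) and the scaffold protein symplekin. They are CPSF1, CPSF2, CPSF3, CPSF4, FIP1L1, WDR33 and SYMPK, taken by name, and they make up 7 of the 78932 gene identifiers in the count tables. CPSF3 encodes CPSF73, the protein that JTE-607 inhibits. The study profiled transcript 3′ ends by poly(A)-primed sequencing in HCT116, a human colorectal cancer cell line, in which NUDT21 carries a degradation tag (dTAG). A group of 4 libraries came from these cells given DMSO and JTE-607, and another group of 4 from the same cells given dTAGV1 and JTE-607. dTAGV1 is a degrader compound that acts on the tag, and DMSO is a solvent. JTE-607 and the tagged NUDT21 are thus shared by all 8 libraries, and libraries without JTE-607 were not analysed here. Doses, times and whether the cells are a single clone are not given in the sources used here. The labels number the replicates but do not say that they are separate cultures, so p-values measure the spread between these libraries, which may be technical.

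CPSF recognises the poly(A) signal of a pre-mRNA, cuts the RNA downstream of it and brings in poly(A) polymerase. Its subunits fall into 2 modules. The polyadenylation module holds the products of CPSF1, CPSF4, FIP1L1 and WDR33, of which WDR33 and CPSF4 contact the AAUAAA hexamer. The cleavage module holds the products of CPSF3, CPSF2 and SYMPK. It also cuts replication-dependent histone pre-mRNA, which is not polyadenylated. The product of NUDT21 belongs to cleavage factor Im (CFIm), which binds UGUA upstream of poly(A) sites and favours the use of those sites.

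The genes of this complex are themselves made into mRNA by the cleavage reaction, so the poly(A) signals in their own 3′ ends are shown. For 6 of the genes, 1 protein-coding GENCODE 29 transcript was taken (GRCh38), and its last 50 bases were searched on the transcript strand for AATAAA and, where that was missing, ATTAAA. The hexamer is in capitals, and each window ends before or at the annotated transcript end.
CPSF2, chr14:92172113-92172142, plus strand: tagcaattgtgaAATAAAcagattctgaag
CPSF3, chr2:9473062-9473091, plus strand: tttgttacctaaAATAAAatgcattcgttt
CPSF4, chr7:99457343-99457371, plus strand: tttatgaaatggATTAAAgcttgtttttt
FIP1L1, chr4:53459633-53459662, plus strand: tactatttcaaaAATAAAaagacagcaatg
SYMPK, chr19:45815452-45815481, minus strand: gccttaaaaagaAATAAAagatgtgaactt
AATAAA was found at 4 of these ends, and CPSF4 has the variant ATTAAA. At the end of the CPSF1 transcript neither was found. Among 19590 protein-coding genes treated alike, 59.4% had AATAAA, 13.3% had only ATTAAA and 27.2% had neither. The letters TGTA, the DNA form of the CFIm motif, occurred once in the last 100 bases of CPSF1, CPSF3 and FIP1L1 and not in CPSF2, CPSF4 or SYMPK, where 50.2% of the 19590 genes had it. In CPSF3 it lies 75 bases before the end, shown in capitals here because CPSF3 encodes the drug target.
CPSF3, chr2:9473015-9473042, plus strand: tgagactgtgccTGTAtatgaactttga
These matches describe the annotated ends and do not show which site was used, since the deposited tables give counts per gene.

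Libraries held 8649238 to 9977205 reads, of which 3447842 to 4291256 were counted to genes on the strand of the gene. Reads that fit no gene on that strand were 30.1% to 33.7% of uniquely mapped reads with DMSO and 35.9% to 37.4% with dTAGV1. The groups did not overlap in this share, and its part in the values below was not tested. Unmapped reads were 27.7% to 28.9% of all reads with DMSO. They were 30.3%, 29.9%, 24.9% and 20.4% in dTAGV1 replicates 1 to 4, and their part was not tested either. The label was checked with 9 markers of colorectal epithelium, of which 7, including EPCAM, KRT19 and CDX2, were at 10 CPM (counts in each 1000000 counted, after scaling) or more in every library. VIL1 had at most 3 counts and CDX1 had 0. The summed markers took 1717 to 2015 CPM with DMSO and 1382 to 1481 CPM with dTAGV1. Of 9 markers of leukocytes, fibroblasts and endothelium, COL1A1 reached 73 counts in a library, and the other 8 at most 10. COL1A1, a fibroblast marker, was at 11.2 to 19.9 CPM and so also passed 10 CPM in every library. The RNA of NUDT21, the tagged gene, was lower in every dTAGV1 library (15 to 43 counts) than in any DMSO library (104 to 139 counts). NUDT21 protein, on which the degrader acts, was not measured here.

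The RNA levels of the 7 genes did not move as a block, and the proteins of the complex were not measured here. CPSF3 and SYMPK fell upon dTAGV1, CPSF1, WDR33 and FIP1L1 rose, and CPSF2 and CPSF4 did not pass the test. The rise of FIP1L1 was less firm, since its groups overlapped and its call was lost under several alternatives given below. The mean of SYMPK fell by 44.7% and that of CPSF1 rose by 62.3%, the largest shifts of the 7 in each direction. All 7 genes passed the filter on low counts. Of them, 5 were called (adjusted p under 0.05 by the quasi-likelihood test of edgeR, with Benjamini-Hochberg adjustment over all tested genes, as for every adjusted p of a gene given here), where 57.9% of all 12618 tested genes were called. Called genes were 3 higher and 2 lower, beside 29.4% and 28.5% of all tested genes. The groups did not overlap for 4 of the 7 genes, where 50.9% of tested genes did not overlap. The share of called members is thus near that of all genes. Their median log2 fold change was -0.12, and the median absolute value was 0.35, beside 0.01 and 0.42 for all tested genes. In this RNA, fewer cells that express a gene and less RNA per cell cannot be told apart.

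**Figure D1:**
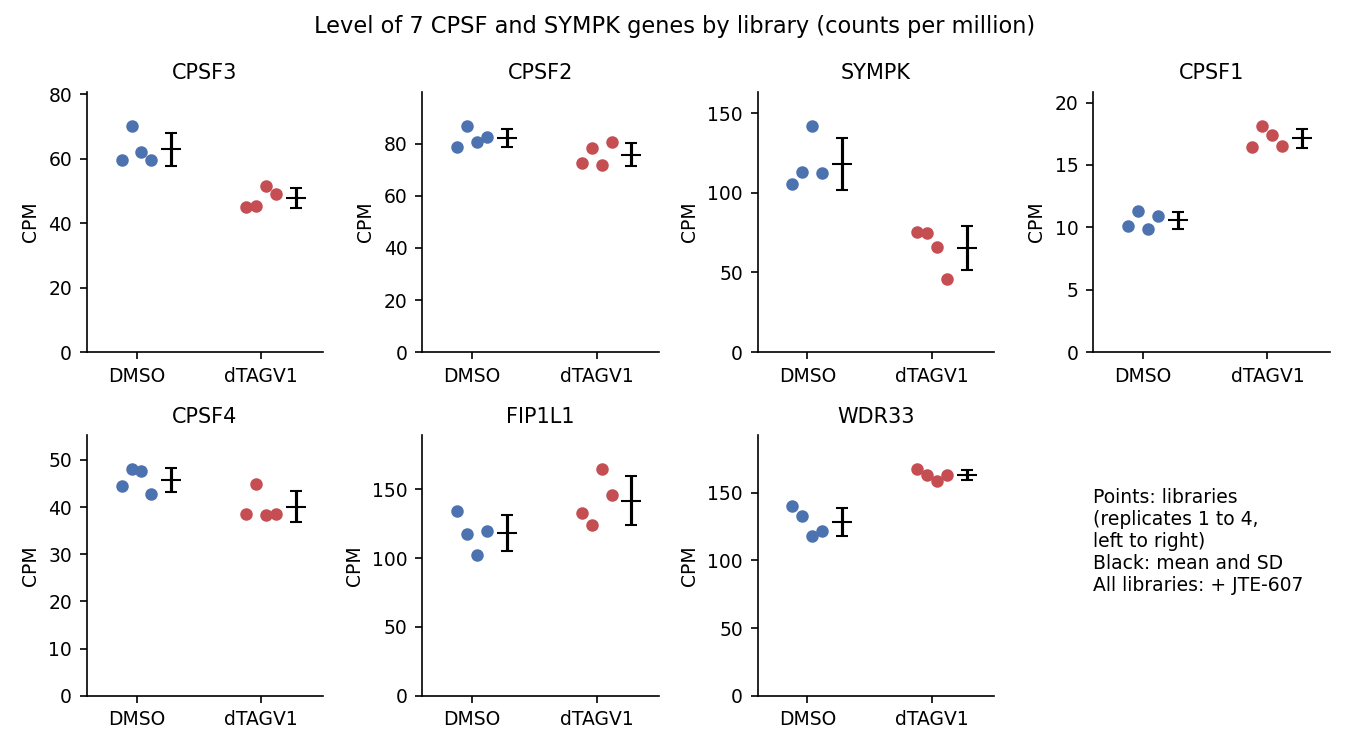
Each panel plots the level of 1 gene in CPM (axis from 0) for the 4 DMSO and 4 dTAGV1 libraries, all with JTE-607; points are libraries and black marks the mean and SD. CPSF3, SYMPK, CPSF1 and WDR33 show no overlap between the groups, whereas CPSF2, CPSF4 and FIP1L1 do.

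CPSF3 encodes the endonuclease that cuts pre-mRNA at the poly(A) site (ENSG00000119203; GRCh38 chromosome 2, 9423568 to 9473101, plus strand, protein-coding). DMSO replicates 1 to 4 had 218, 291, 233 and 241 counts, and dTAGV1 replicates 1 to 4 had 159, 150, 175 and 207. Scaled to library size and composition, these were 59.6, 70.2, 62.2 and 59.6 CPM with DMSO, and 45.1, 45.3, 51.6 and 49.0 CPM with dTAGV1. All 4 dTAGV1 libraries lay below the lowest DMSO library. The mean fell from 62.9 ± 5.02 to 47.7 ± 3.11 CPM (SD, n = 4 each), so it fell by 24.1%. edgeR gave a log2 fold change of -0.40 (SE 0.10, adjusted p = 0.0012). It did not pass when the change had to exceed 1.2-fold (edgeR glmTreat, adjusted p = 0.0642).

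SYMPK encodes symplekin, the scaffold that holds CPSF2 and CPSF3 and joins them to other 3′ end factors (ENSG00000125755; chromosome 19, 45815410 to 45863290, minus strand, protein-coding). Its levels were 105, 113, 142 and 112 CPM with DMSO, and 75.4, 74.6, 65.7 and 45.6 CPM with dTAGV1. The groups did not overlap, and dTAGV1 replicate 4 was the lowest library. That library also had the smallest share of unmapped reads (20.4%), and a link between them was not tested. From 118 ± 16.3 to 65.3 ± 13.8 CPM (SD, n = 4 each), SYMPK had the largest fall of the 7 genes. By edgeR its log2 fold change was -0.86 (SE 0.14, adjusted p = 6.73e-05), and it was called against 1.2-fold as well (edgeR glmTreat, adjusted p = 0.000458). SYMPK had 0 counts on the opposite strand in every library. Its coding transcripts have 3 annotated ends over 3520 bases, which the count pools.

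CPSF2 encodes CPSF100, which resembles CPSF73 and pairs with it but lacks nuclease activity (ENSG00000165934; chromosome 14, 92121937 to 92172145, plus strand, protein-coding). Its levels were 78.7, 86.8, 80.6 and 82.6 CPM with DMSO, and 72.6, 78.2, 71.9 and 80.6 CPM with dTAGV1. Of the dTAGV1 libraries, 3 lay below all DMSO libraries and replicate 4 lay among them. The means were 82.2 ± 3.48 and 75.8 ± 4.29 CPM (SD, n = 4 each), with an edgeR log2 fold change of -0.12 (SE 0.09, adjusted p = 0.256).

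CPSF1 encodes CPSF160, the large scaffold of the polyadenylation module (ENSG00000071894; chromosome 8, 144393229 to 144409349, minus strand, protein-coding). It was the least counted of the 7, with 37, 47, 37 and 44 counts in the DMSO libraries and 58, 60, 59 and 70 counts in the dTAGV1 libraries. Every dTAGV1 library exceeded every DMSO library. CPSF1 rose from 10.5 ± 0.678 to 17.1 ± 0.787 CPM (SD, n = 4 each), and its edgeR log2 fold change was 0.69 (SE 0.16, adjusted p = 0.000716). This rise also passed against 1.2-fold (edgeR glmTreat, adjusted p = 0.00556).

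WDR33 encodes a WD-repeat protein that binds the AAUAAA hexamer (ENSG00000136709; chromosome 2, 127701022 to 127811187, minus strand, protein-coding). Its levels were 140, 133, 118 and 122 CPM with DMSO, and 167, 163, 158 and 163 CPM with dTAGV1. The groups did not overlap, and the dTAGV1 libraries lay close together. The mean rose from 128 ± 10.4 to 163 ± 3.58 CPM (SD, n = 4 each), and its edgeR log2 fold change was 0.35 (SE 0.08, adjusted p = 0.000372). Against 1.2-fold it was not called (edgeR glmTreat, adjusted p = 0.099). GENCODE 29 gives WDR33 coding transcripts with 3 ends, at 127701022 (22 exons), 127735388 (8 exons) and 127762533 (6 exons), over a span of 61511 bases. The count pools them, so that a shift between long and short WDR33 forms was not separated from a change in level.

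FIP1L1 encodes a subunit that binds U-rich RNA and poly(A) polymerase (ENSG00000145216; chromosome 4, 53377643 to 53460861, plus strand, protein-coding). It had 134, 118, 102 and 119 CPM with DMSO, and 133, 124, 164 and 146 CPM with dTAGV1. dTAGV1 replicates 3 and 4 lay above all DMSO libraries, and replicates 1 and 2 lay within their range. Replicates 3 and 4 also had smaller shares of unmapped reads (24.9% and 20.4%) than any DMSO library, and a link was not tested. The means were 118 ± 13.1 and 142 ± 17.7 CPM (SD, n = 4 each), and its edgeR log2 fold change was 0.26 (SE 0.09, adjusted p = 0.0179). This call rested on single libraries: without DMSO replicate 3, dTAGV1 replicate 3 or dTAGV1 replicate 4 the log2 fold change was 0.19, 0.17 or 0.23 (edgeR, adjusted p = 0.101, 0.138 and 0.0526). It was also lost with library-size scaling alone (0.19; edgeR, adjusted p = 0.0932) and on counts irrespective of strand (0.20; edgeR, adjusted p = 0.177). Counted without regard to strand, FIP1L1 had only 110 to 182 counts per library against 382 to 618 on its own strand. LNX1 overlaps the 3′ end of FIP1L1 on the other strand, and the part of LNX1 in this loss was not tested. AC058822.1 overlaps FIP1L1 on the same strand, an overlap that both ways of counting share. GENCODE 29 gives FIP1L1 coding transcripts with 3 ends over a span of 31447 bases, pooled in the same way.

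CPSF4 encodes CPSF30, a zinc-finger protein that reads the poly(A) hexamer together with WDR33 (ENSG00000160917; chromosome 7, 99438922 to 99457371, plus strand, protein-coding). Its levels were 44.5, 48.0, 47.8 and 42.8 CPM with DMSO, and 38.5, 45.0, 38.3 and 38.5 CPM with dTAGV1. In 3 of the dTAGV1 libraries it was below all DMSO libraries, and replicate 2 lay among them. edgeR gave a log2 fold change of -0.19 (SE 0.11, adjusted p = 0.12). Without dTAGV1 replicate 2 it became -0.26 and was called (edgeR, adjusted p = 0.0463), as it was with library-size scaling (-0.27, adjusted p = 0.0332). CPSF4L, its paralog, had 0 counts in every library, where 3 counts stand for 0.710 to 0.906 CPM.

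The levels were also summed by module. The cleavage module genes together had 243, 270, 285 and 254 CPM with DMSO, and 193, 198, 189 and 175 CPM with dTAGV1. The polyadenylation module genes had 329, 310, 277 and 295 CPM with DMSO, and 355, 350, 379 and 365 CPM with dTAGV1. The groups overlapped in neither sum. The first sum was 0.875 ± 0.117 of the second with DMSO but 0.523 ± 0.0393 of it with dTAGV1 (mean ± SD of the ratio, n = 4 each), whereas the sum over all 7 genes was 566 ± 13.3 and 551 ± 11.8 CPM. SYMPK carried most of the drop in the cleavage module sum: CPSF2 and CPSF3 alone summed to 145 ± 8.21 CPM with DMSO and 124 ± 4.89 CPM with dTAGV1, and the ratio without SYMPK averaged 0.481 ± 0.0426 and 0.341 ± 0.0148 (SD, n = 4 each). In the polyadenylation module sum, WDR33 (mean 128 to 163 CPM) and FIP1L1 (118 to 142 CPM) carried most of the rise. CPSF1 added little (10.5 to 17.1 CPM), and the mean of CPSF4 went the other way (45.8 to 40.1 CPM). These sums are given as a description with no test. Of the cleavage module genes 2 of 3 were called lower, and of the polyadenylation module genes 3 of 4 were called higher, beside 28.5% and 29.4% of all tested genes. With so few genes no pattern of the modules is read from these counts, and the split between them was not tested.

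**Figure D2:**
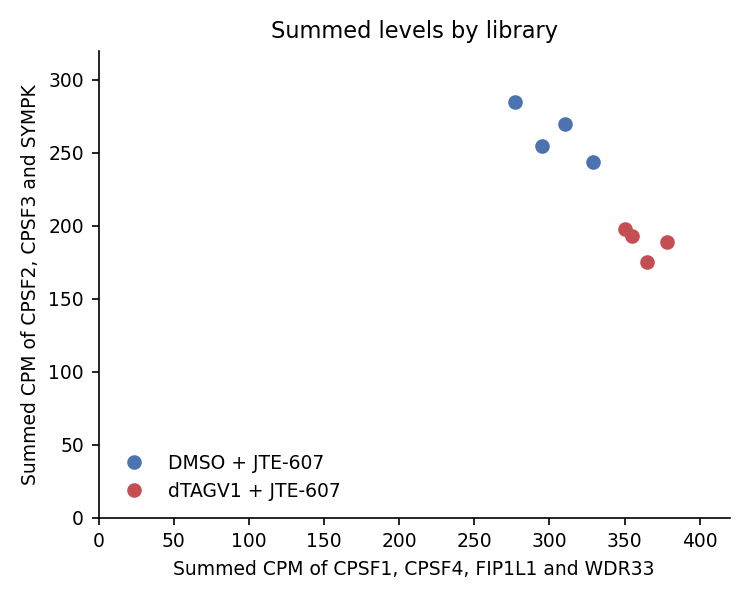
Each point is a library, placed by the summed CPM of the polyadenylation module genes (horizontal axis) and of the cleavage module genes (vertical axis), with both axes from 0. DMSO libraries lie at 277 to 329 and 243 to 285 CPM, and dTAGV1 libraries at 350 to 379 and 175 to 198 CPM.

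Whether CPSF3 responded unlike the other genes was tested on the log2 ratio of CPSF3 to each of them in every library, on the log2(CPM + 0.5) scale. The 6 ratios share CPSF3 and were adjusted together, and 0.0286 is the smallest exact p that 4 against 4 can give. Relative to CPSF2, its partner in the nuclease pair, CPSF3 was -0.40, -0.31, -0.37 and -0.47 with DMSO and -0.68, -0.78, -0.48 and -0.71 with dTAGV1. That ratio was lower in every dTAGV1 library, by a difference in means of -0.28 (2-sided exact permutation p = 0.0286, adjusted over the 6 ratios p = 0.0429). The adjusted value leans on ratio tests that were fixed in advance, named below, and is not read as a pass.

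Relative to the 3 genes called higher, the shift was larger. The CPSF3 to CPSF1 log2 ratio went from 2.52 ± 0.0887 to 1.45 ± 0.114 (SD, n = 4 each), a difference of -1.07. The ratio to WDR33 differed by -0.74 and that to FIP1L1 by -0.65. DMSO and dTAGV1 libraries were fully separated in all 3 ratios (exact permutation p = 0.0286 and adjusted p = 0.0429 for each). For CPSF1 and WDR33 this was fixed in advance, because CPSF3 was lower and each of them higher in every dTAGV1 library. Those ratio tests add nothing to the single-gene results. The adjusted p of the ratios to CPSF2 and FIP1L1 also leans on them, so a pass after adjustment is not claimed for either. The ratio to CPSF4 went from 0.45 ± 0.0726 to 0.25 ± 0.18, a difference of -0.20 that did not pass (exact permutation test p = 0.0857, adjusted p = 0.0857). The ratio to SYMPK was -0.82, -0.68, -1.18 and -0.91 with DMSO and -0.74, -0.71, -0.35 and 0.10 with dTAGV1. It differed by 0.47 with overlapping groups (exact permutation test p = 0.0857, adjusted p = 0.0857), so a larger fall of SYMPK than of CPSF3 was not resolved.

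**Figure D3:**
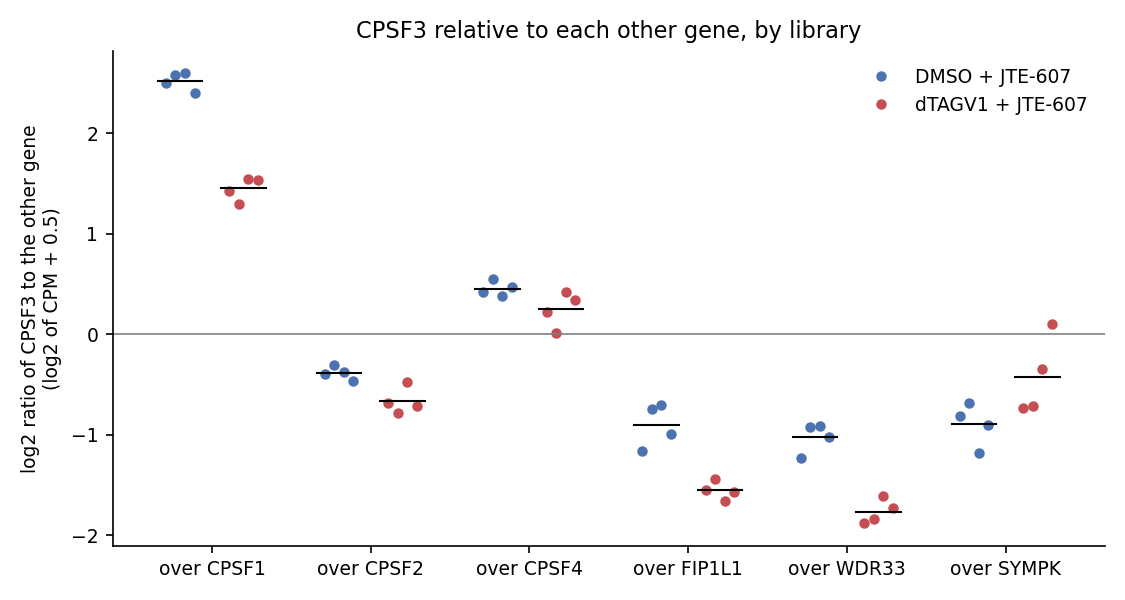
The vertical axis gives the log2 ratio of CPSF3 to each of the other 6 genes (log2 of CPM + 0.5), with 1 point per library and a line at each group mean. The ratios to CPSF1, CPSF2, FIP1L1 and WDR33 are lower in all 4 dTAGV1 libraries than in any DMSO library, and those to CPSF4 and SYMPK overlap.

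The order of the levels changed with treatment. The kit gives a read near the 3′ end of each transcript, so levels of different genes were set side by side in CPM with no division by length. With DMSO, WDR33, FIP1L1 and SYMPK were highest at means of 128, 118 and 118 CPM, and neighbours among them overlapped. CPSF2 (82.2 CPM), CPSF3 (62.9), CPSF4 (45.8) and CPSF1 (10.5) followed, each below the one before it in every library. With dTAGV1, WDR33 and FIP1L1 stayed at the top with overlapping ranges. SYMPK dropped to the fourth place, and its range overlapped that of CPSF2 above it and of CPSF3 below it. CPSF1 was lowest in both groups.

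Among 19 other cleavage and polyadenylation factors, all tested, 5 were higher and 9 lower, and 5 did not pass (73.7% called, beside 57.9% of all tested genes). Their median log2 fold change was -0.20, beside 0.01 for all tested genes. PPP1CB, a catalytic subunit of protein phosphatase 1, had the largest change, from 108 ± 5.43 to 23.6 ± 1.91 CPM (SD, n = 4 each; log2 fold change -2.19). NUDT21 followed at -1.95. PABPN1, the nuclear poly(A) binding protein, had 1.36 at only 8 to 33 counts per library, and WDR82, which recruits a phosphatase complex to RNA polymerase II, had -0.67. The CFIm partners CPSF6 (-0.63) and CPSF7 (-0.32) and 3 of the 4 cleavage stimulation factor genes (CSTF2, CSTF2T and CSTF3, -0.55 to -0.28) were also lower. PCF11 and RBBP6, which join the cleavage reaction, were higher at 0.55 and 0.48. CLP1, CSTF1, PAPOLA, PPP1CA and TOX4 did not pass.

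**Figure D4:**
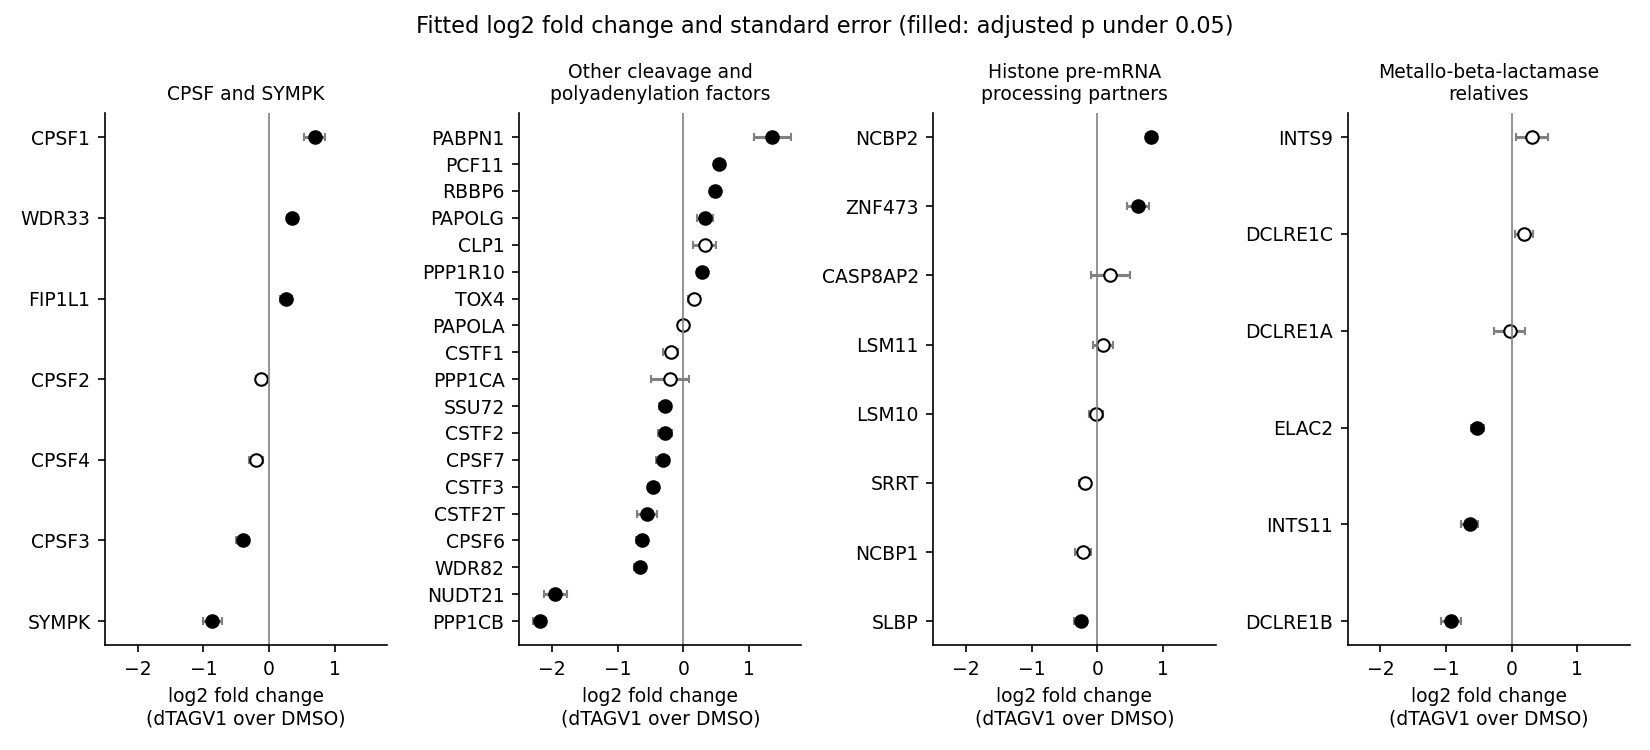
Points are fitted log2 fold changes of dTAGV1 over DMSO and bars their standard errors, for the 7 CPSF and SYMPK genes and for 3 lists of related genes; filled points have an edgeR adjusted p under 0.05. The 7 genes run from -0.86 (SYMPK) to 0.69 (CPSF1), within the range of the other factors, -2.19 (PPP1CB) to 1.36 (PABPN1).

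Of 8 genes whose products work with the cleavage module on histone pre-mRNA, all tested, 2 were higher, 1 lower and 5 did not pass (37.5% called, beside 57.9% of all tested genes). NCBP2, a subunit of the cap-binding complex, rose from 145 ± 15.3 to 257 ± 26.3 CPM (SD, n = 4 each), with 0.82 as its log2 fold change. ZNF473, a zinc-finger protein of the histone processing machinery, had 0.62. SLBP, which binds the histone stem-loop, had -0.26 with overlapping groups (edgeR, adjusted p = 0.0269).

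The metallo-beta-lactamase relatives of CPSF3 and CPSF2 include INTS11 and INTS9, the nuclease pair of the Integrator complex. INTS11, the catalytic member, fell from 42.0 ± 5.6 to 26.9 ± 2.23 CPM (SD, n = 4 each), and its edgeR log2 fold change was -0.64 (SE 0.12, adjusted p = 9.07e-05). Its 4 dTAGV1 libraries, at 80 to 116 counts, lay below the DMSO libraries at 141 to 181 counts. INTS9, its inactive partner, had 17 to 54 counts with DMSO and 36 to 43 with dTAGV1, and a log2 fold change of 0.31 that did not pass (edgeR, adjusted p = 0.277). DCLRE1B, a DNA repair nuclease, had -0.92, and ELAC2, which trims the 3′ ends of tRNA precursors, had -0.52. In all, 3 of these 6 genes were lower and 0 higher, beside 28.5% and 29.4% of all tested genes. The share called was 50%, beside 57.9% of all tested genes, and with so few genes no difference is read from this.

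JTE-607 is a prodrug that the carboxylesterase CES1 converts to its active form. CES1 had 0 counts in all 8 libraries, where 3 counts stand for 0.710 to 0.906 CPM. CES2, another carboxylesterase, was measured at 68.9 ± 3.84 CPM with DMSO and 102 ± 11.4 CPM with dTAGV1 (SD, n = 4 each), with 0.57 as its log2 fold change (edgeR, adjusted p = 9.84e-06). Conversion of JTE-607 was not measured here, and a part of either gene in it was not tested.

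GENCODE 29 lists 20 genes that overlap a member or lie within 5 kb of it, of which 7 were tested. ITGB1BP1 starts 21 bases from CPSF3 on the other strand and had a log2 fold change of 0.01 (edgeR, adjusted p = 0.945). IAH1, which begins 557 bases beyond the end of CPSF3 on the same strand, was lower, from 28.3 ± 2.53 to 19.3 ± 2.09 CPM (SD, n = 4 each; log2 fold change -0.55, adjusted p = 0.00125). NDUFB1 lies 20 bases from CPSF2 on the other strand and had 0.21 (adjusted p = 0.228). FOXA3, 699 bases from SYMPK on the other strand, was lower at -0.65 (adjusted p = 0.014). On the other strand of CPSF4, PTCD1 and ATP5MF overlap it and had -0.01 and -0.27 (adjusted p = 0.969 and 0.0106). SFT2D3 overlaps WDR33 on the other strand and had 0.07 (SE 0.42, edgeR adjusted p = 0.898). The other 13, among them ADCK5 and SLC39A4 beside CPSF1, RSPH6A beside SYMPK and both genes that overlap FIP1L1, did not enter the test. Reads on the opposite strand of the members were few: 0 for CPSF1, CPSF2 and SYMPK, at most 3 for CPSF3, 5 to 16 for CPSF4, 5 to 11 for FIP1L1 and 4 to 20 for WDR33. Only WDR33 passed the filter on such counts, with a log2 fold change of -0.06 (edgeR, adjusted p = 0.918), where 48.4% of 3324 genes tested in this way were called.

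The promoters of SYMPK, CPSF3 and WDR33 are shown because these genes moved in opposite directions without overlap between the groups. RefSeq promoter entries (GRCh38.p14, 250 bases before to 50 after the start) were found for 6 of the 7 genes, without CPSF1. They were searched on both strands for CGGAAG, the core of ETS factor sites, and ATGGCGG, the core of YY1 sites, both chosen after the sequences were seen. The matches are in capitals, and in SYMPK they lie side by side.
SYMPK, chr19:45863098-45863397, minus strand: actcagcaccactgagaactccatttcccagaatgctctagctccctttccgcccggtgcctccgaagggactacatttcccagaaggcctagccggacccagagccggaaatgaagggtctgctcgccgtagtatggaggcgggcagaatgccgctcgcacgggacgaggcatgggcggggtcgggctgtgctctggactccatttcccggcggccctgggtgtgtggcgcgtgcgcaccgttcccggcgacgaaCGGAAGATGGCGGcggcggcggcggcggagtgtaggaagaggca
CPSF3, chr2:9423404-9423703, plus strand: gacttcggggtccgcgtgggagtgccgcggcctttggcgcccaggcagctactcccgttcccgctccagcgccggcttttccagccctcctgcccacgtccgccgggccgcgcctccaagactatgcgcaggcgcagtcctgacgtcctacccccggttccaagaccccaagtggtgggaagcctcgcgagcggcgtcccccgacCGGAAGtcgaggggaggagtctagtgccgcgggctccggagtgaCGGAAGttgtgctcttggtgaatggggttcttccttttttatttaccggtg
WDR33, chr2:127811122-127811421, minus strand: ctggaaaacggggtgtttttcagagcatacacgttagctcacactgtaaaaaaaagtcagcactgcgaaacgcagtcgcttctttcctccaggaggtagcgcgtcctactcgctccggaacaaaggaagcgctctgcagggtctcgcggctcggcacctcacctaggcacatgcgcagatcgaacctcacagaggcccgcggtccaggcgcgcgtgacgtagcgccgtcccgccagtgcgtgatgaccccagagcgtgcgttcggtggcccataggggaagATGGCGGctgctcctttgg
CGGAAG was present in 4 of the 6 promoters (CPSF2, CPSF3, FIP1L1 and SYMPK), beside 19.9% of 27305 promoters of the same length. ATGGCGG was present in 3 (CPSF2, SYMPK and WDR33), beside 5.72%. Because the motifs were chosen from these same sequences, a higher share here was built in and is not read as an excess. Each motif occurred both in genes that fell and in genes that rose. A match is a description of letters and not a site.

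The genes most like CPSF3 over the 8 libraries were sought among 9247 tested genes with a symbol and a mean of at least 10 CPM, by Pearson's r of log2(CPM + 0.5). The nearest were LMLN (r = 0.984), RMI1 (0.981), BRIP1 (0.980), HNRNPA2B1 (0.980) and CISD2 (0.979). The points share libraries and the split into treatment groups, so r is given as a description. Their log2 fold changes ran from -1.04 (RMI1) to -0.42 (HNRNPA2B1). The other members were not among these nearest genes. SYMPK (r = 0.748), CPSF2 (0.717) and CPSF4 (0.697) stood at places 2230, 2422 and 2536 of the 9247. FIP1L1 (-0.502), WDR33 (-0.844) and CPSF1 (-0.865), which were called higher, stood at places 5743, 7818 and 8091.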

How the data were processed

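The 8 libraries were prepared from Trizol-extracted RNA with the Lexogen 3′ QuantSeq FWD V2 kit, per the labels' protocols. The authors deposited counts, as whole numbers for each gene, in 1 table per library. FastQC, fastp, STAR, HTSeq and DESeq2 and the build GRCh38 are named in the submitters' processing notes, without versions or roles. The annotation is not given in the sources used here, nor is the handling of PCR copies, which may be among the counts. Each table holds unstranded, sense and opposite-strand counts in the layout of STAR, and the sense counts were used. They exceeded the opposite-strand counts 8.28 to 8.48 times. The 4 totals of reads given to no gene, 56.7% to 62.8% of reads, stayed out of library sizes. Reads in introns, beyond annotated ends or in exons shared by genes fall among them.

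Gene names were found for 61481 of 78932 identifiers. Coordinates (GENCODE 29, GRCh38, 1-based) were found for 57356, and that release is not stated to be the authors' own. Groups were taken from the sample titles. The test was edgeR 4.0.16 (R 4.3.3) with filterByExpr, TMM scaling, robust quasi-likelihood fits and Benjamini-Hochberg adjustment over 12618 genes at 0.05. It was tested on simulated data. A positive log2 fold change means more with dTAGV1. CPM denotes counts in each 1000000 after TMM scaling. The SE is the absolute log2 fold change divided by the square root of F. Log2 ratios used CPM + 0.5 and 2-sided exact permutation tests (SciPy 1.17.1). Alternatives were RLE and library-size scaling, no filter, a mean of at least 100 counts, DESeq2 1.42.0, limma-voom (limma 3.58.1), counts irrespective of strand, a replicate block, non-robust dispersions, glmTreat at 1.2-fold, no pseudocount and leaving out each library.

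The members, lists and naming rule were chosen with earlier results of these data known. Named were the 7 members, up to 4 called genes of each list with the largest absolute change, INTS11 and INTS9, CPSF4L, CES1 and CES2, tested neighbours within 5 kb, some of those not tested and the 5 genes most like CPSF3. Other genes of the lists were named after their values were seen. Replicate pairs differed by more than sampling noise (chi-square over degrees of freedom 1.90 to 5.65), and all 8 libraries were kept. The 3′ end of 1 member is not reported here.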

Additional observations from a re-analysis of the deposited data

Results flagged for a closer look

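The CPSF4 level of 45.0 CPM in dTAGV1 replicate 2 stood apart from the other 3 dTAGV1 libraries, which lay at 38.3 to 38.5 CPM. Its gap to the nearest of them was 0.962 of the range of the group, above Dixon's critical value for 4 samples. It was the single such case among 26 groups of 4 values examined (levels of the 7 genes and the 6 log2 ratios), and chance flags about 1 in 20 groups.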

How the results depend on the processing

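For 15 results (all genes called, members called, 7 fold changes and 6 ratios), 173 of 214 alternative values stayed on the same side of the threshold or within 1.5 times the count, 37 no longer passed, 2 newly passed and 2 counts moved. No called value changed sign. The log2 fold changes ranged from -0.47 to -0.35 for CPSF3, -0.95 to -0.73 for SYMPK, 0.62 to 0.72 for CPSF1 and 0.27 to 0.39 for WDR33, and these 4 genes kept their calls under every alternative in which they were tested other than the fold threshold. A mean of at least 100 counts left 4120 genes called, since fewer genes were tested, and CPSF1 was not among those tested. Against 1.2-fold, 2 members were called, CPSF1 and SYMPK. FIP1L1 was not called with library-size scaling (0.186, edgeR adjusted p = 0.0932) or on counts irrespective of strand (0.200, adjusted p = 0.177), and CPSF4 was called with library-size scaling (-0.268, adjusted p = 0.0332). The cause was not tested. Library-size scaling moved the median of all genes from 0.01 to -0.06.

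With 1 library left out at a time, 6861 to 7232 genes and 4 to 6 members were called. FIP1L1 ranged from 0.173 to 0.321 and CPSF4 from -0.263 to -0.174. The differences in log2 ratio ranged from -1.11 to -1.02 for CPSF1, -0.34 to -0.238 for CPSF2, -0.261 to -0.123 for CPSF4, -0.739 to -0.588 for FIP1L1, -0.812 to -0.704 for WDR33 and 0.299 to 0.577 for SYMPK. None of the 6 ratios passed in these, because 3 libraries against 4 cannot give an exact permutation p below 0.0571. Both groups carry replicate numbers 1 to 4 in the labels. Deviations of same-numbered libraries from their group means correlated at 0.131, -0.0176, 0.0232 and 0.034, so the numbers were not taken to pair the libraries. Only numbers 1 and 3 of the DMSO libraries correlated best with their own number. With a replicate block, 7434 genes and 5 members were called, and the log2 fold changes were -0.40 for CPSF3, -0.12 for CPSF2, -0.87 for SYMPK, 0.70 for CPSF1, -0.19 for CPSF4, 0.26 for FIP1L1 and 0.35 for WDR33. CPSF1, at 37 to 70 counts per library, is the member that depth limits most.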
